A study of Drosophila melanogaster with 2 samples.

Results

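The genes described here are 9 genes for glycolytic enzymes (Pgi, Pfk, Ald, Tpi, Gapdh1, Gapdh2, Pgk, Eno and PyK) and ImpL3, the gene for lactate dehydrogenase. They were taken by symbol from a deposited table of 13989 genes, and all 10 were found and had an FPKM (fragments scaled to transcript length and library size) of at least 1, as did 8275 genes of the table. The libraries came from wing discs of wandering third-instar Drosophila melanogaster larvae, the larval epithelia from which the wings and dorsal thorax arise. The genotype enGFP+Tai expressed Taiman (Tai), a coactivator of the ecdysone receptor, together with GFP, and the genotype enGFP expressed GFP alone. Both drove the transgenes with engrailed, whose activity is posterior, so every value averages posterior cells that expressed them and anterior cells that did not. Between 80 and 100 discs were pooled per genotype, and the table holds 1 value per gene and genotype. Triplicates are mentioned in the series design, but values of single replicates were not analysed here and the differences below have no replicate check. In such pooled tissue, fewer cells of a type and less RNA per cell cannot be told apart.

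Glycolysis splits glucose into pyruvate and yields ATP and NADH. Its first stage traps and rearranges hexose and cleaves it into triose phosphates, and its second stage oxidises the trioses and ends with pyruvate kinase. Lactate dehydrogenase reduces pyruvate to lactate and regenerates the NAD+ that the second stage consumes. In Drosophila larvae the estrogen-related receptor ERR is known to activate many of these genes, and high lactate dehydrogenase is known from fly imaginal disc tumours. ImpL3 owes its name to the ecdysone-inducible transcripts of imaginal discs among which it was isolated.

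ImpL3 differed most among the 10 genes. It had an FPKM of 29.2 in enGFP+Tai discs and 9.63 in enGFP discs. The genes of the hexose stage had slightly higher values in enGFP+Tai discs, with Ald at 1.33 times, Pgi at 1.18 times and Pfk at 1.13 times the enGFP value. The 6 genes of the triose stage among the 10 lay between 0.904 times for Gapdh1 and 1.08 times for Gapdh2, while Pglym78, a triose-stage gene outside the 10, stood at 1.17 times. The difference between the stages was not tested. The 10 genes together summed to 2376 FPKM in enGFP+Tai discs and 2253 FPKM in enGFP discs.

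On the scale log2(FPKM + 1), which understates differences of low genes, 6 of the 10 genes had a higher value in enGFP+Tai discs and 4 a lower one. Among all 8275 genes, 46.2% had a higher value. The median log2 difference of the 10 genes was 0.08, and that of all 8275 genes was -0.02. One gene, ImpL3, was at least 2-fold higher, where 6.31% of all genes were, and 0 of the 10 were at least 2-fold lower, where 1.81% of all genes were. At 3-fold 0 of the 10 were higher, where 3.92% of all genes were. At 1.5-fold the counts stayed at 1 higher and 0 lower, against 9.82% and 3.93% of all genes. The share of the 10 genes past either threshold thus lay near that of the table. The 9 genes other than ImpL3 had log2 differences between -0.14 and 0.41, a span that held 55.5% of all genes.

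**Figure D1:**
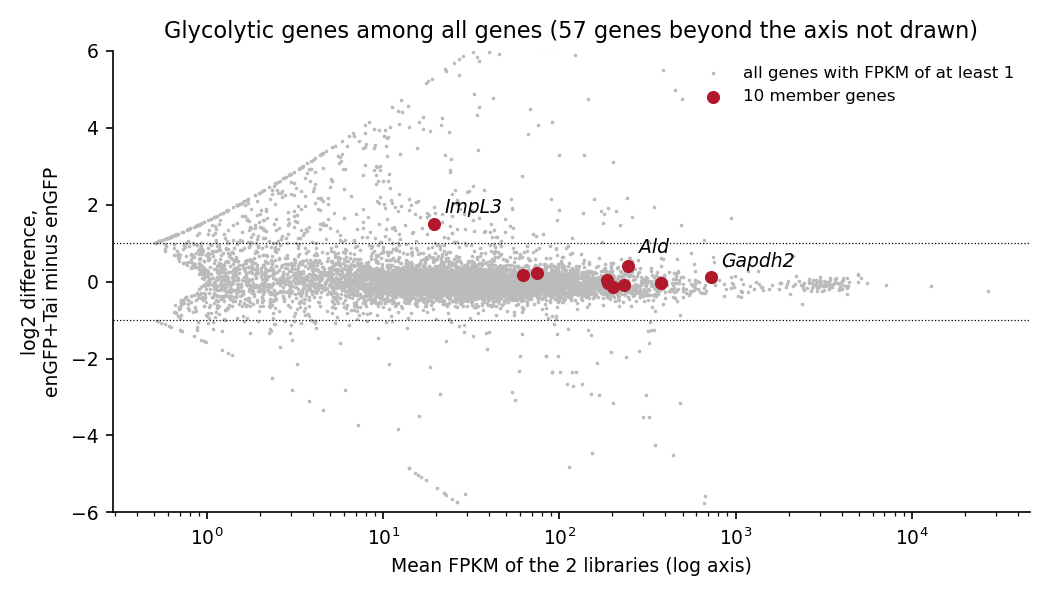
The log2 difference (enGFP+Tai minus enGFP, on FPKM + 1) is plotted against the mean FPKM of both libraries on a log axis for all 8275 genes (grey) and the 10 glycolytic and lactate dehydrogenase genes (red), with dotted lines at 2-fold. ImpL3, at 1.505, is the red point above the upper line, and 57 genes beyond 6 on either side are not drawn.

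By level, the genes spanned a wide range, and the order was much alike in both libraries. FPKM is scaled per length, so levels may be compared between genes. Gapdh2 was the most abundant, with 755 FPKM in enGFP+Tai discs and 698 FPKM in enGFP discs, ranks 137 and 141 among all genes of the table. Eno came next with 374 FPKM in enGFP+Tai discs and 385 FPKM in enGFP discs. Pgi, Pfk and ImpL3 were the 3 lowest in both libraries. In enGFP+Tai discs, Gapdh1, Tpi and PyK followed each other at 191, 188 and 187 FPKM, and their 95% counting intervals overlapped (183 to 199, 180 to 197 and 181 to 193). In enGFP discs, Ald and Gapdh1 both stood at 211 FPKM, with intervals of 203 to 220 and 202 to 221, whereas in enGFP+Tai discs Ald stood next after Eno at 281 FPKM (272 to 289). These intervals cover counting error only. They come from fragment numbers estimated at a depth of 10621843 fragments for enGFP+Tai and 8128896 fragments for enGFP.

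**Figure D2:**
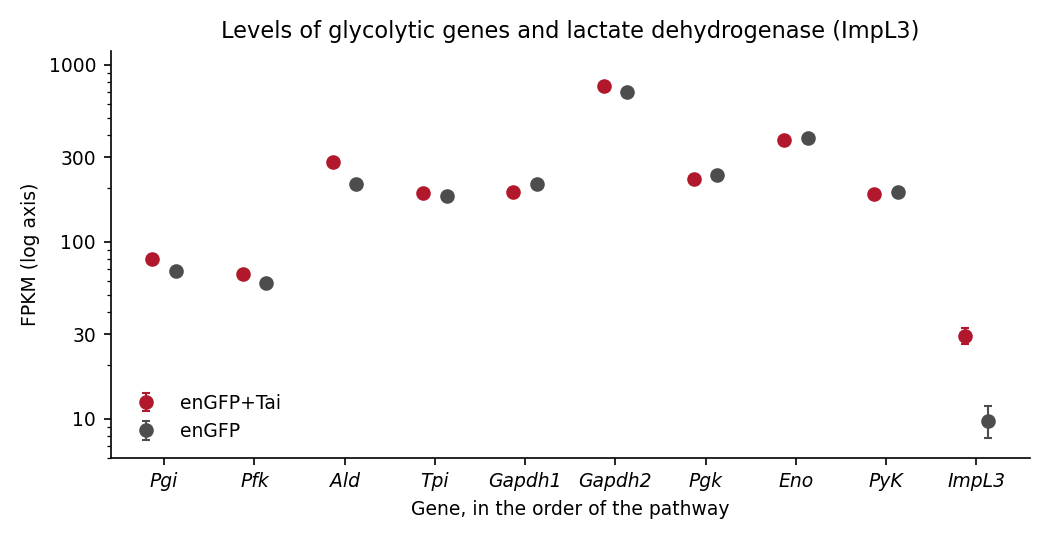
FPKM of each gene on a log axis in enGFP+Tai discs (red) and enGFP discs (grey), 1 value per genotype, with 95% counting intervals that are mostly smaller than the points. Genes run in the order of the pathway, with lactate dehydrogenase (ImpL3) last, and the levels reach from 9.63 FPKM for ImpL3 in enGFP discs to 755 FPKM for Gapdh2 in enGFP+Tai discs.

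All 3 hexose-stage genes had higher values in enGFP+Tai discs, as did 46.2% of all 8275 genes, and 0 of the 3 were at least 1.5-fold higher. Pgi encodes the isomerase that turns glucose 6-phosphate into fructose 6-phosphate (FBgn0003074, 2R:8910900-8914069 in the BDGP6 annotation, minus strand). It had 80.3 FPKM in enGFP+Tai discs and 68.3 FPKM in enGFP discs, a ratio of 1.18 (95% counting interval 1.09 to 1.27). Pfk encodes phosphofructokinase, the committing and most regulated step (FBgn0003071, 2R:10109740-10117457, plus strand). It had 65.8 FPKM in enGFP+Tai discs and 58.1 FPKM in enGFP discs, a ratio of 1.13 (1.06 to 1.21), and was the lowest of the 9 glycolytic genes described here in either library. Ald, named Ald1 in the annotation, encodes the aldolase that cleaves fructose 1,6-bisphosphate (FBgn0000064, 3R:26254069-26261591, minus strand). It had 281 FPKM in enGFP+Tai discs and 211 FPKM in enGFP discs, a ratio of 1.33 (1.26 to 1.40) and a log2 difference of 0.41. Ald thus ranked second among the 10 genes by difference and 1088th among the 8275 genes. Its exons overlap an antisense RNA gene, asRNA:CR44321, over 338 bases, and the TruSeq version 2 kit does not mark strand, so reads of both cannot be told apart there. Summed, the 3 genes reached 427 FPKM in enGFP+Tai discs and 338 FPKM in enGFP discs. This grouping by stage was made after the values were seen.

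Tpi, which encodes triose phosphate isomerase (FBgn0086355, 3R:30132981-30134599, minus strand), links the stages by interconverting the products of aldolase. It had 188 FPKM in enGFP+Tai discs and 182 FPKM in enGFP discs, a ratio of 1.03 whose counting interval of 0.968 to 1.11 held equal values. Among the 10 genes, this was so for Tpi, Eno and PyK.

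Gapdh1 (FBgn0001091, 2R:7791901-7793380, minus strand) and Gapdh2 (FBgn0001092, X:15868145-15869661, plus strand) encode glyceraldehyde 3-phosphate dehydrogenase, the oxidation step that produces NADH. They went in opposite directions. Gapdh1 had 191 FPKM in enGFP+Tai discs and 211 FPKM in enGFP discs, a ratio of 0.904 (0.852 to 0.960), the lowest of the 10. Gapdh2 had 755 FPKM in enGFP+Tai discs and 698 FPKM in enGFP discs, a ratio of 1.08 (1.05 to 1.12). The level of Gapdh2 was therefore 3.95 times that of Gapdh1 in enGFP+Tai discs and 3.30 times in enGFP discs. Fragments of paralogs as alike as these can be assigned to the wrong copy, which makes the split between them uncertain. Their sum was 946 FPKM in enGFP+Tai discs and 909 FPKM in enGFP discs, a log2 difference of 0.06.

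Pgk, Eno and PyK had ratios slightly below 1. Pgk, for phosphoglycerate kinase, which makes ATP (FBgn0250906, 2L:2746880-2753068, minus strand), had 225 FPKM in enGFP+Tai discs and 238 FPKM in enGFP discs, a ratio of 0.943 (0.900 to 0.989). Eno, for enolase (FBgn0000579, 2L:1724768-1729636, minus strand), had 374 FPKM in enGFP+Tai discs and 385 FPKM in enGFP discs, a ratio of 0.972 (0.940 to 1.00). Exons of Eno overlap those of Rrp40 on the other strand over 362 bases, and those of Pgk overlap Cwc25 over 65 bases. Rrp40 had 36.4 FPKM in enGFP+Tai discs and 46.0 FPKM in enGFP discs, and Cwc25 had 16.0 FPKM in enGFP+Tai discs and 19.0 FPKM in enGFP discs, all well below Eno and Pgk. PyK, for pyruvate kinase, the last step (FBgn0267385, 3R:22367536-22372746, plus strand), had 187 FPKM in enGFP+Tai discs and 191 FPKM in enGFP discs, a ratio of 0.975 (0.928 to 1.02). Summed over Tpi, both Gapdh genes, Pgk, Eno and PyK, the level was 1920 FPKM in enGFP+Tai discs and 1906 FPKM in enGFP discs.

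**Figure D3:**
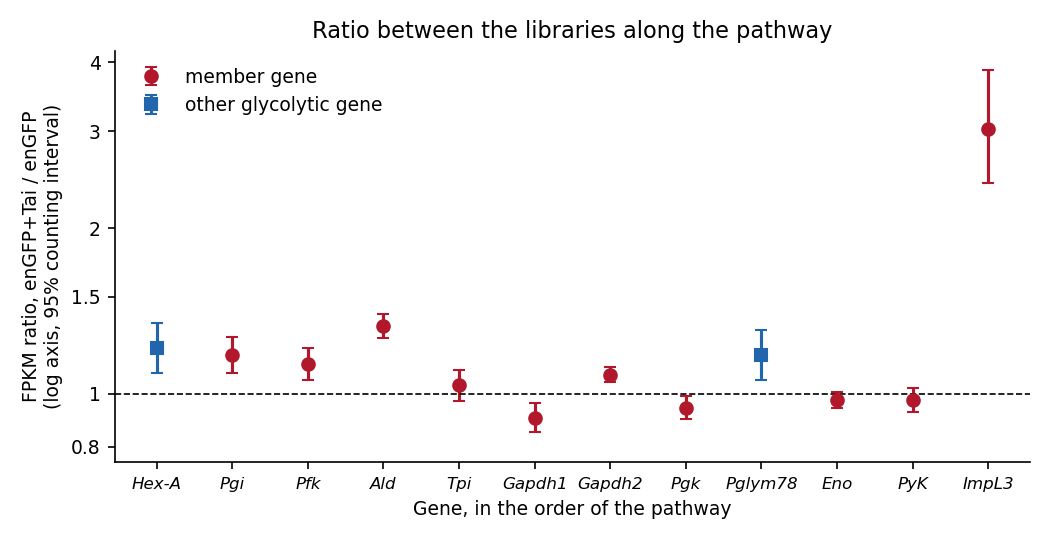
FPKM ratio of enGFP+Tai to enGFP on a log axis, with 95% counting intervals, for the 10 genes (red circles) and for Hex-A and Pglym78 (blue squares), in the order of the pathway; the dashed line marks equal values. Hex-A to Ald lie above the line at 1.13 to 1.33, Tpi to PyK lie close to it apart from Pglym78 at 1.17, and ImpL3 stands at 3.03.

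ImpL3, named Ldh in the annotation (FBgn0001258, 3L:6259105-6262694, minus strand), had 29.2 FPKM in enGFP+Tai discs and 9.63 FPKM in enGFP discs. It was the least abundant of the 10 genes in both libraries, at rank 3729 of all genes in enGFP+Tai discs and rank 6185 in enGFP discs. The ratio was 3.03 (95% counting interval 2.41 to 3.88, on an estimated 358 fragments in enGFP+Tai and 90 in enGFP), and the log2 difference was 1.505. By that difference it ranked 339th of 8275 genes. Of the 3334 genes with a mean FPKM within 2-fold of ImpL3, 3.63% were at least 2-fold higher. Lactate dehydrogenase transcripts amounted to 0.156 times those of pyruvate kinase in enGFP+Tai discs and 0.0503 times in enGFP discs. No exon of another annotated gene overlaps ImpL3.

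In the authors' deposited table, all 10 genes were tested and 0 were called. In the authors' deposited table, ImpL3 had the lowest p of the 10, 0.5212, and PyK the highest, 0.963, and the q-value was 0.9995 for each. That table called 11 of 8374 genes, among them tai itself, which had 879 FPKM in enGFP+Tai discs and 27.1 FPKM in enGFP discs.

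Counting error was small for the 9 glycolytic genes and larger for the less abundant ImpL3. The counting intervals excluded equal values for 7 of the 10. They lay above 1 for 5 genes (ImpL3, Ald, Pgi, Pfk and Gapdh2) and below 1 for Gapdh1 and Pgk. Over all 7930 genes with a fragment estimate, the interval lay above 1 for 21.7% and below 1 for 24.9%. Among 2344 genes that reached an FPKM of 50 in either library, a limit chosen after the values were seen, it lay above 1 for 25.4% and below 1 for 42.5%. Of the 9 glycolytic genes, all past that limit, 4 lay above 1 and 2 below. An interval that excludes 1 says only that these libraries differed, since the spread between discs of one genotype is unknown.

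Genes next to ImpL3 on chromosome arm 3L mostly lay near equal values. Within 100 kb on either side the table lists 25 genes, of which 12 reached an FPKM of 1. Their median log2 difference was 0.05. The nearest of the 12, Best2, had 20.8 FPKM in enGFP+Tai discs and 19.5 FPKM in enGFP discs, and the laminin gene LanA had 78.7 FPKM in enGFP+Tai discs and 89.4 FPKM in enGFP discs. One of the 12 was at least 2-fold higher, pncr008:3L, with 1.88 FPKM in enGFP+Tai discs, and it was listed at 0 in enGFP. CG12964, CREG and CG10585 lay nearest to ImpL3 over both log2(FPKM + 1) values. CG12964 had 30.1 FPKM in enGFP+Tai discs and 9.64 FPKM in enGFP discs, a distance of 0.04.

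The other disc transcripts named after ecdysone induction, chosen after their values were seen, differed among themselves. ImpL1 had 538 FPKM in enGFP+Tai discs and 4.39 FPKM in enGFP discs, and ImpE1 had 396 FPKM in enGFP+Tai discs and 122 FPKM in enGFP discs, a ratio of 3.25 near that of ImpL3. ImpE2 and ImpE3 had ratios of 1.59 and 1.52. ImpL2, which encodes a secreted binding protein of insulin-like peptides, had 34.4 FPKM in enGFP+Tai discs and 42.8 FPKM in enGFP discs, a ratio of 0.803.

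Markers of other cell types were also compared beside ImpL3. The 8 wing disc markers were all present, with sums of 410 FPKM in enGFP+Tai and 439 FPKM in enGFP, and 2 of 8 were higher in enGFP+Tai. Their ratios ran from 0.736 for rn to 1.45 for Bx, and vg had 42.9 FPKM in enGFP+Tai discs and 44.0 FPKM in enGFP discs. Of the compartment genes, the posterior genes en, inv and hh had ratios of 1.08, 1.36 and 1.31, and the anterior gene ci and the Hedgehog receptor gene ptc had ratios of 0.989 and 0.870. The counting intervals lay above 1 for inv (1.26 to 1.48) and hh (1.19 to 1.44). Fat body markers were higher in enGFP+Tai discs for 7 of 8 genes, with sums of 52.9 FPKM in enGFP+Tai and 39.8 FPKM in enGFP. Blood cell markers were higher for 5 of 5, with sums of 12.0 FPKM in enGFP+Tai and 5.75 FPKM in enGFP. Trachea markers were higher for 3 of 5, with sums of 1334 FPKM in enGFP+Tai and 466 FPKM in enGFP. The 3 were the chitin-related genes Gasp, serp and verm, with ratios of 3.61, 2.88 and 2.78. The regulators trh and btl had ratios of 0.949 and 0.995. Larval muscle markers were higher for 4 of 12, with sums of 448 FPKM in enGFP+Tai and 450 FPKM in enGFP, nearly all of them from the tropomyosin gene Tm1 (396 FPKM in enGFP+Tai and 390 FPKM in enGFP). Of the 9 muscle markers that reached an FPKM of 1, 7 had lower values in enGFP+Tai, among them the troponin gene up with 2.76 FPKM in enGFP+Tai and 4.87 FPKM in enGFP. The myosin gene Mhc had 0.482 FPKM in enGFP+Tai and 0.440 FPKM in enGFP. Muscle precursor markers were higher for 1 of 5, with sums of 70.6 FPKM in enGFP+Tai and 76.4 FPKM in enGFP. Neuron markers were higher for 3 of 4, with sums of 9.14 FPKM in enGFP+Tai and 9.80 FPKM in enGFP. These 3 stayed below an FPKM of 1 in both libraries. The remaining neuron marker, elav, had a lower value in enGFP+Tai, with 7.19 FPKM in enGFP+Tai and 9.32 FPKM in enGFP. None of these markers was listed at 0 in either library, and their part in the differences of ImpL3 and the hexose-stage genes was not tested.

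The remaining enzymes of glycolysis completed the pathway. Hex-A, the main hexokinase gene, had 39.4 FPKM in enGFP+Tai discs and 32.5 FPKM in enGFP discs, a ratio of 1.21 (1.09 to 1.34). Hex-C had 0.138 FPKM in enGFP+Tai discs and 0.452 FPKM in enGFP discs, from an estimated 2 fragments in enGFP+Tai and 5 in enGFP. Pglym78, for the phosphoglycerate mutase between Pgk and Eno, had 104 FPKM in enGFP+Tai discs and 88.9 FPKM in enGFP discs, a ratio of 1.17 (1.06 to 1.30). Of 14 glycolytic genes outside the 10, these 3 included and most of the rest paralogs, 5 reached an FPKM of 1, and their median log2 difference was 0.03. One of the 5 was at least 2-fold lower, CG9961, a neighbour of Pgk, with 0.153 FPKM in enGFP+Tai discs and 1.60 FPKM in enGFP discs (an estimated 2 fragments in enGFP+Tai and 16 in enGFP). CG13334, a predicted lactate dehydrogenase gene, was listed at 0 in both libraries.

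Pathways that feed or drain glycolysis gave context. Genes for trehalose, glycogen and sugar uptake had higher values in enGFP+Tai discs for 9 of 10 genes, with a median log2 difference of 0.23. The phosphoglucomutase gene Pgm had 28.4 FPKM in enGFP+Tai discs and 21.0 FPKM in enGFP discs, and the glycogen phosphorylase gene GlyP had 76.6 FPKM in enGFP+Tai discs and 63.8 FPKM in enGFP discs. The trehalose transporter gene Tret1-1 was the one gene of the list at least 2-fold higher, with 4.80 FPKM in enGFP+Tai discs and 1.01 FPKM in enGFP discs. By contrast, all 7 genes of the pentose phosphate pathway had lower values in enGFP+Tai discs (median -0.34), as did 13 of 17 genes of the citric acid cycle (median -0.22) and all 22 respiratory chain and ATP synthase genes (median -0.25). In none of these 3 lists was a gene 1.5-fold different. For comparison, 46.2% of all 8275 genes had a higher value. Of the 1233 genes that reached an FPKM of 100 in either library, 36.2% had a higher value, and their median log2 difference was -0.09. Of the 10 genes described here, 7 passed that limit and 3 of these (Ald, Gapdh2 and Tpi) had a higher value, and 0 of the 7 were at least 1.5-fold higher, where 7.06% of the 1233 were.

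**Figure D4:**
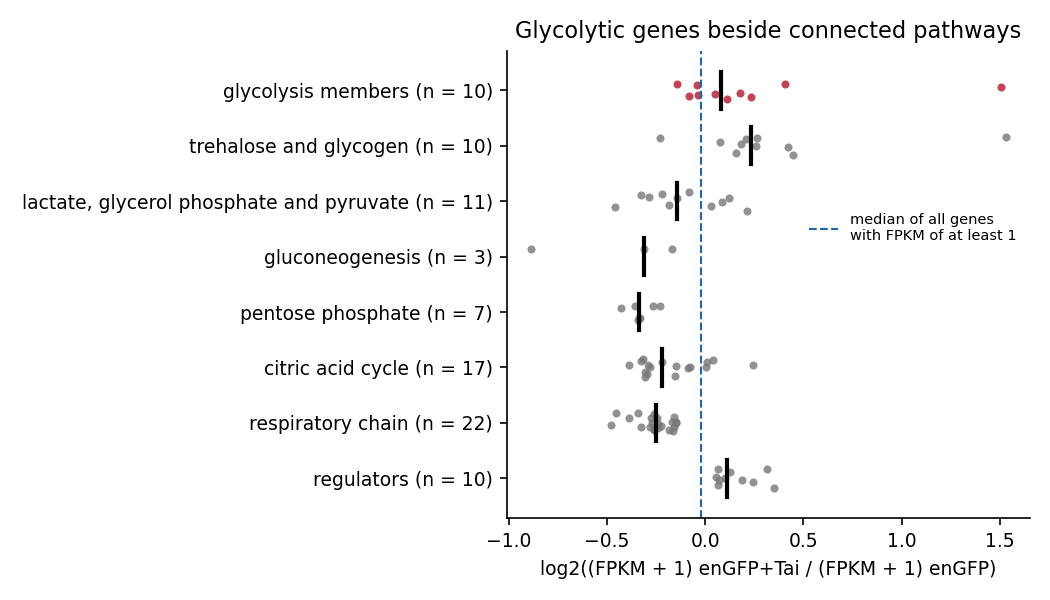
Log2 differences (enGFP+Tai minus enGFP, on FPKM + 1) of single genes, as points, for the 10 glycolytic and lactate dehydrogenase genes (red) and 7 connected lists (grey), for genes that reached an FPKM of 1; black bars are list medians and the dashed line is the median of all 8275 genes. The red points lie on both sides of 0 with a median of 0.08, and the pentose phosphate and respiratory chain points all lie below 0.

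Among the fates of pyruvate and NADH, 4 of 11 genes had higher values in enGFP+Tai discs, with a median log2 difference of -0.15. The pyruvate dehydrogenase kinase gene Pdk, whose product inhibits pyruvate entry into the citric acid cycle, had 11.8 FPKM in enGFP+Tai discs and 16.6 FPKM in enGFP discs, the largest difference of this list. Gpdh, for the glycerol 3-phosphate dehydrogenase that also regenerates NAD+, had 13.9 FPKM in enGFP+Tai discs and 13.1 FPKM in enGFP discs, a ratio of 1.07 (0.866 to 1.31). The 3 gluconeogenesis genes that reached an FPKM of 1 all had lower values in enGFP+Tai discs (median -0.31, which a pseudocount of 5 brought to -0.16 and a minimum FPKM of 5 to -0.53), with the phosphoenolpyruvate carboxykinase gene Pepck at 63.5 FPKM in enGFP+Tai discs and 118 FPKM in enGFP discs.

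Genes listed as regulators of glycolysis or of its genes, not all of them activators, had slightly higher values in enGFP+Tai discs for 10 of 10. Among all 8275 genes, 46.2% had a higher value. The list held 11 symbols, which matched 10 genes of the table. The log2 differences of these 10 lay between 0.06 and 0.35, the largest for sug, on an estimated 32 fragments in enGFP+Tai and 17 in enGFP. Counting intervals lay above 1 for sima, dm and Pfrx, the last an enzyme gene, and held equal values for the others of the list. ERR had 17.4 FPKM in enGFP+Tai discs and 16.1 FPKM in enGFP discs, a ratio of 1.08 (0.904 to 1.28). The hypoxia factor gene sima had 52.5 FPKM in enGFP+Tai discs and 42.1 FPKM in enGFP discs, a ratio of 1.25 (1.18 to 1.33), and dm, the fly Myc gene, had 70.0 FPKM in enGFP+Tai discs and 61.3 FPKM in enGFP discs. None of the 10 was 1.5-fold different, unlike ImpL3. In 6 genes of larval growth and sugar response, 3 had higher values, and daw, for an activin-like ligand, had the largest difference of that list, with 16.3 FPKM in enGFP+Tai discs and 4.63 FPKM in enGFP discs.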

How the data were processed

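RNA was sequenced from discs pooled within each genotype, and the table holds 1 value per gene and genotype. Per the labels' protocols, ribosomal RNA was removed from 4 µg of total RNA and the library was made with the TruSeq version 2 kit. Cuffdiff 2.2.1, TopHat2 2.0.12, CASAVA 1.4 and the build dm6 stand in the submitters' processing notes, with no roles given. The deposited table holds an FPKM value of each gene for either genotype (its name calls them RPKM), and, per the file headers, the authors' p-value and q-value. How replicates were handled, the annotation and the filters were not given in the sources used here. Loci in the table lay at a nearly constant offset from BDGP6 on each arm (4174279 bp on 3R, for example). As dm6 is the same assembly as BDGP6, these loci were not in the coordinates of the build named in the notes. Coordinates and transcript lengths therefore came from Ensembl release 115 (BDGP6), matched by name and place, for 13273 of 13989 genes and all 10 members.

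Differences were computed as log2((FPKM + 1) of enGFP+Tai / (FPKM + 1) of enGFP) for genes that reached an FPKM of 1 in either library. The genotypes were not tested against each other, since each has 1 value. Fragments were estimated from the low values. Among 1876 genes with low values above 0 in both libraries, 274 shared the ratio 0.7653, taken as equal fragment numbers. The step of 1 fragment in 56 single-transcript genes, with 215 nt taken off each length, gave the depths. Of low single-transcript values, 76.2% in enGFP+Tai and 76.7% in enGFP came out whole within 0.1. Since not all did, the fragments served only for counting intervals (exact Poisson for a level, exact Clopper-Pearson split of the fragments for a ratio, 95%), with the median transcript length of each gene. The depth estimator was run on simulated data in which each gene had 1 known length, a simpler case than these data. The intervals were checked there only for genes set as unchanged, from the simulated counts and true depths. Intervals built from estimated fragments were not checked. Python 3.11.15, numpy 2.4.6, pandas 2.3.3 and scipy 1.17.1 were used.

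The 10 genes and 17 other gene lists were chosen with earlier results of these data known. Named genes were the 10 members, tai, up to 4 genes per list by size of difference, a few fixed genes (such as Hex-A, Pglym78, ERR and Mhc) and the 3 genes nearest to ImpL3. Other named genes (GlyP, Tm1, btl, the Imp genes, CG13334, genes overlapping or neighbouring a member) were chosen after their values were seen. Alternatives were other pseudocounts, minimums and thresholds, centring, merging the Gapdh genes and leaving out ImpL3.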

Additional observations from a re-analysis of the deposited data

How the results depend on the processing

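No paired analysis was possible because each genotype has 1 value per gene. Under the alternatives, 210 values were computed for 44 results. Of these, 16 moved beyond their limits and 194 did not. For a gene the limit was its counting interval, and for a count or share a factor of 1.5. For a median it was an interval between ranked values of its genes. With 1 neuron gene that interval had no width, so any change counted as a move. Many of the 194 could not move, since a minimum leaves the value of a kept gene unchanged. That 0 changed the sign of a 2-fold difference carries no information, since pseudocounts and minimums cannot change the sign of a gene. The log2 difference of ImpL3 ranged from 1.22 with a pseudocount of 5 to 1.59 with one of 0.1. The median of the 10 genes (0.08) ranged from -0.04, at a minimum FPKM of 100, to 0.10 and so does not settle a direction. At that minimum only 7 genes were left, ImpL3 not among them, so that 3 had a higher value and 0 were at least 1.5-fold or 2-fold higher. ImpL3 did not reach a 3-fold threshold on this scale, at which 0 of the 10 were higher. The share of all genes at least 2-fold higher (6.31%) was 3.43% with a pseudocount of 5, 3.73% with no minimum, 9.82% at 1.5-fold and 3.92% at 3-fold, and the share at least 1.5-fold higher (9.82%) was 6.07% with a pseudocount of 5. Among the lists, the medians of gluconeogenesis (-0.31), blood cells (0.43) and neurons (-0.33, 1 gene) also moved, over ranges of -0.89 to -0.16, 0.16 to 0.71 and -0.37 to 0.35. The spread between discs of one genotype is unknown, and depth limits ImpL3 in enGFP (an estimated 90 fragments) more than the other 9 genes.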
